A study of Mus musculus with 22 samples.

Results

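The genes described here are 32 antiviral interferon-stimulated genes of the mouse, taken from a table of RNA read counts for 46078 genes in the distal colon. They were chosen by symbol from the Ifit, Oas and Mx families and the genes known to be induced with them, and all 32 symbols matched a single gene in the table. The counts came from 22 mice in 3 groups. The C57BL/6 group held 8 mice aged 14 weeks (4 males and 4 females). The Winnie group held 7 mice aged 14 weeks (3 males and 4 females) with a missense mutation in Muc2, the gene of the main mucin of colonic goblet cells, which leads to spontaneous chronic colitis. The control mice are described as littermates. The Winnie-Prolapse group held 7 Winnie mice with rectal prolapse aged 18 weeks (4 males and 3 females). Age and prolapse went together in that group and cannot be told apart. No other allele, drug or infection is named for any group, and the mutation is present in the whole animal.

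Interferons are secreted proteins that warn cells of infection. Type I interferons bind the Ifnar1 and Ifnar2 receptor, and type III interferons bind Ifnlr1 with Il10rb, and both activate a complex that holds Stat2 and Irf9 and binds an interferon-stimulated response element (ISRE). Type II interferon, encoded by Ifng and made by T and natural killer (NK) cells, acts through another element, the gamma-activated site (GAS). The genes switched on by these routes include sensors of viral nucleic acid, the transcription factors of the pathway itself, and effectors that degrade viral RNA, block its translation or trap virus at membranes.

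The letters of these elements were looked for in the promoters of the 32 genes. RefSeq promoter sequences on GRCm38.p6, from 250 bases before to 50 bases after a gene's start, were on hand for 24 of the 32 genes. The genes with no entry were Dhx58, Zbp1, Oas2, Mx1, Mx2, Usp18, Rtp4 and Ifi27l2a. The ISRE letters, GAAA, any 2 bases and GAAA on either strand (TTTC, 2 bases and TTTC on the other), occurred in 14 of the 24 genes and in 3.44% of all 32851 promoters. A longer form that goes on with CT, each a match of the shorter one too, occurred in 9 of the 24 genes and in 0.271% of all promoters. The GAS letters, TTC, any 3 bases and GAA, read the same on both strands. They occurred in 6 of the 24 genes and in 8.3% of all promoters. The 24 genes had 28 promoters listed. A gene was counted if any of its promoters held the letters, while the shares of all promoters are per promoter. The 4 sequences shown were taken because they hold the ISRE letters (capitals) in genes of different roles, a membrane factor, an RNA-activated synthetase, a ubiquitin-like modifier and an RNA sensor.
Ifitm3: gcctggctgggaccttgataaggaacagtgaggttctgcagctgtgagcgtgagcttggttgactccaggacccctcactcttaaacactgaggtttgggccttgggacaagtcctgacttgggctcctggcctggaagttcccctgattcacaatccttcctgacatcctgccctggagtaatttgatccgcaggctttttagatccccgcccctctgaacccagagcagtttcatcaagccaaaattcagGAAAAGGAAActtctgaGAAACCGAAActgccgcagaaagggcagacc
Oas1a: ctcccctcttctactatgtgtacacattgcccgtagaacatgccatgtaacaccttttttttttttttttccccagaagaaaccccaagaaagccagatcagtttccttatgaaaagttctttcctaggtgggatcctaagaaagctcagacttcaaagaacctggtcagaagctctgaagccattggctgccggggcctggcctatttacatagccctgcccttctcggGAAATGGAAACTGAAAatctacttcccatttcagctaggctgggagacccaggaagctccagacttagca
Isg15: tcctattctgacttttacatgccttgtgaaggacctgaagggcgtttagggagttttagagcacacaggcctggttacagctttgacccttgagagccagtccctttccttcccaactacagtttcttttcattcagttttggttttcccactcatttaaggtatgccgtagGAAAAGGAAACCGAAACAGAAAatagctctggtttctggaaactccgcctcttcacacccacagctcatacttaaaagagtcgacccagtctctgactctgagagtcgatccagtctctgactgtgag
Ifih1: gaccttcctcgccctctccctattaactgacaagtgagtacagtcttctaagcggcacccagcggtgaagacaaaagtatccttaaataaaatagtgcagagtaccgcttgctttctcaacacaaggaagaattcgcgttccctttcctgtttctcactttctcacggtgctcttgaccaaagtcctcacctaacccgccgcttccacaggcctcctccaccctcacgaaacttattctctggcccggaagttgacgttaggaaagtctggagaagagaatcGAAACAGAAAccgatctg
Each is written 5′ to 3′ along the gene. The Ifitm3 window is chr7:141010695-141010994 on the minus strand, and its matches begin 2 and 19 bases after the start. The Oas1a window is chr5:120907476-120907775 on the minus strand, with overlapping matches that begin 20 and 14 bases before the start. The Isg15 window is chr4:156200769-156201068 on the minus strand, and 3 overlapping matches begin 78, 72 and 66 bases before the start. The Ifih1 window is chr2:62646206-62646505 on the minus strand, with a match that begins 32 bases after the start. The Ifitm3 and Oas1a windows also hold GAS letters, which begin 13 bases after and 98 bases before the start and are not marked.

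The promoter of Irf1 is shown because it holds GAS letters and no ISRE letters, and was chosen after its values were seen. The window shown, 1 of 2 listed for the gene, is chr11:53769764-53770063 on the plus strand. The capitals mark the GAS letters, which begin 90 bases before the start.
Irf1: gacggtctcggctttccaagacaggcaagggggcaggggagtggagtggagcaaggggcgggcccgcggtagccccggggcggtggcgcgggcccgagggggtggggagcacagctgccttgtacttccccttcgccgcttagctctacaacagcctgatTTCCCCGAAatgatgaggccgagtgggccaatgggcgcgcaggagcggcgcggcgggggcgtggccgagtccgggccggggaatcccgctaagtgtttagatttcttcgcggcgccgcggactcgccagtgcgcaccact
These letter matches describe the windows only. Genes with and without the ISRE letters are set side by side with no test of their difference. In Winnie against C57BL/6 the median log2 fold change was 0.99 over the 14 genes with ISRE letters (0.21 to 2.74) and 1.14 over the 10 genes without (0.40 to 2.70). In Winnie-Prolapse the medians were 1.18 (−0.06 to 2.78) and 1.34 (0.23 to 3.35).

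The libraries held 24817527 to 36344372 counts each, so that 3 counts, the limit a count of 0 allows, correspond to 0.0825 to 0.121 counts per 1000000 of a library's total count (CPM). Some libraries stood apart and are named here because results below rest on them. C57BL/6 replicate 7, a female, was the highest control for 21 of the 32 genes and held 3.80 CPM of Ly6g, against a control median of 286, while the neutrophil markers S100a8 and S100a9 were at 0.617 CPM or lower in every control. The library labelled Winnie replicate 5, also a female, was the lowest of its group for 25 of the 32 genes and had values near the control mean in median (given below), and counts per gene do not show the Muc2 mutation, so that its label could not be checked. Winnie-Prolapse replicate 6, another female, held 179624 CPM of milk protein genes of the mammary gland and was the lowest of its group for 14 of the 32 genes, or for 4 once the milk protein genes were left out of the library totals (a choice made after seeing the data). The colonic epithelial marker Epcam was present throughout, at 1216 to 1830 CPM. Muc2 itself differed by a log2 fold change of −0.65 ± 0.29 (SE) in Winnie (adjusted p = 0.113) and fell by 0.84 ± 0.27 on the log2 scale in Winnie-Prolapse (adjusted p = 0.0155).

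**Figure D1:**
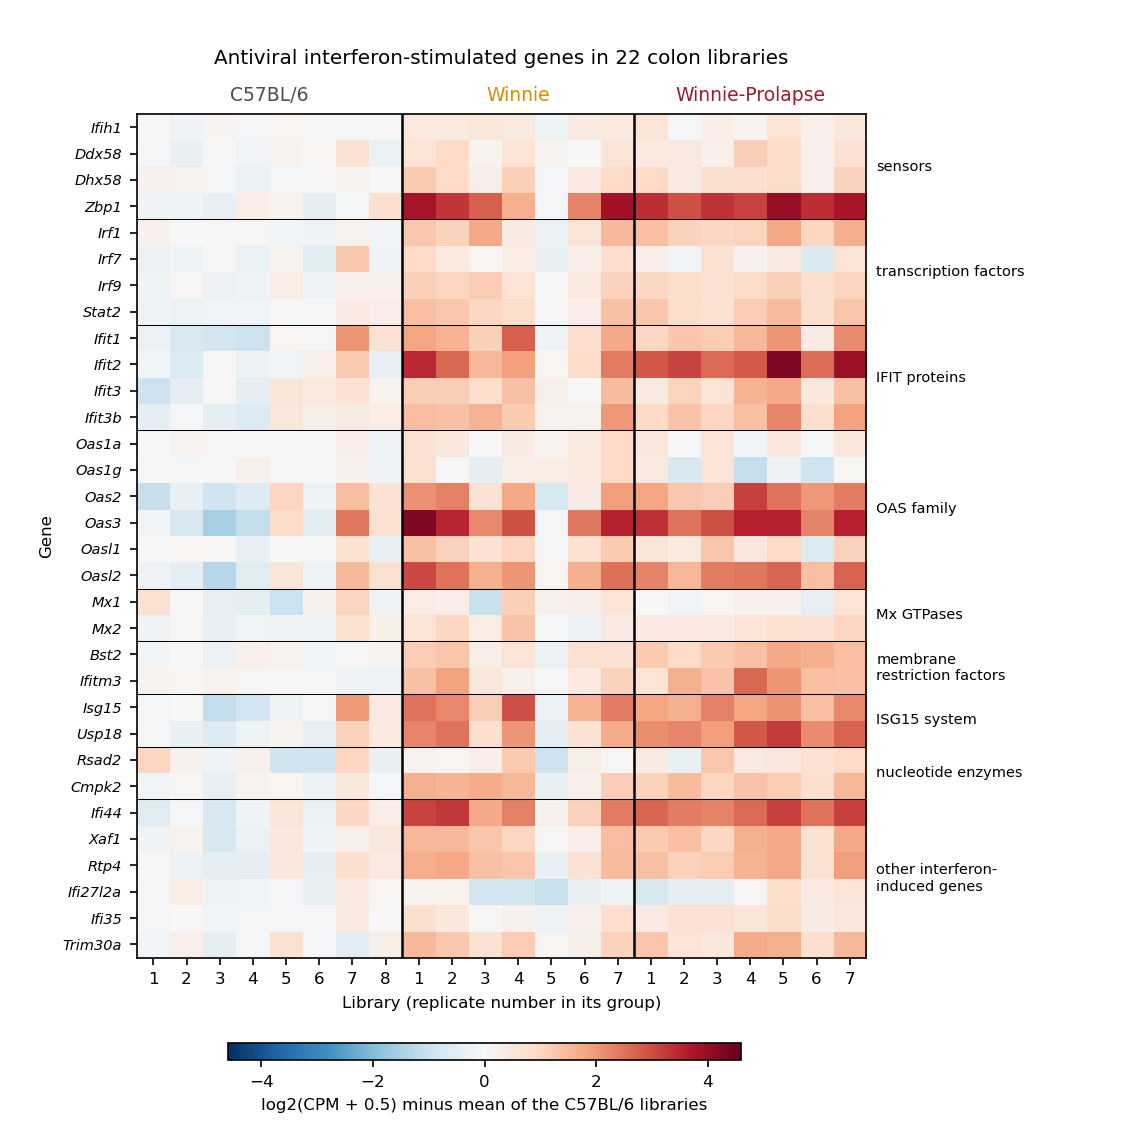
Each row is a gene, grouped by role, and each column a library. Color gives log2(CPM + 0.5) minus the mean of the 8 C57BL/6 libraries. Zbp1, Ifit2, Oas3 and Ifi44 are strongly colored in most libraries of Winnie and Winnie-Prolapse, Winnie replicate 5 has the pale colors of the controls, and C57BL/6 replicate 7 is the reddest control.

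The antiviral genes were higher in inflamed colon as a group, with and without prolapse. In the main edgeR fit no gene of the set passed between Winnie and Winnie-Prolapse. Some alternative settings, given below, called 1 to 5 of them. A gene is said to have risen or fallen where edgeR's quasi-likelihood test gave a Benjamini-Hochberg adjusted p below 0.05, over all genes, and a change of at least 1.5-fold. A stricter limit, an adjusted p below 0.001 with the same fold, is given beside it. The question in each comparison is whether the interferon-induced genes change with colitis, or with prolapse on top of colitis.

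In Winnie against C57BL/6, 22 of the 32 genes rose and none fell, where 7.42% of the 17289 genes tested rose and 8.53% fell. The median log2 fold change of the 32 genes was 0.99, against −0.01 over all genes, and 31 of 32 values were positive. By the stricter limit edgeR called 0 of the 32, where 0.0868% of all genes were called higher and 0.00578% lower. Likewise limma-voom called 0 of the 32, where it called 0% of all genes. DESeq2 called 18 of the 32 by that limit, where it called 2.63% of all genes higher. Its shares, here and below, are over every gene with a count (29288 in this comparison). They take in many low genes that edgeR left out, so the 2 tools' shares are not over the same genes. Unadjusted p fell below 0.05 for 28 of the 32, where 39.9% of all genes did. The smallest adjusted p was 0.00124, for Zbp1. None of the 32 genes separated the groups completely, where 0.463% of all genes were higher in every Winnie library than in any control and 1.17% were lower. Without Winnie replicate 5 the stricter limit was passed by 13 of the 32 genes, where 2.5% of all genes were then called higher. Without both that library and C57BL/6 replicate 7, a choice made after seeing the data, it was passed by 18, where 3.55% of all genes were.

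Winnie-Prolapse set against C57BL/6 showed a rise in 25 of the 32 genes and a fall in none, where 16.7% of the 17397 genes tested rose and 17.7% fell. By the stricter limit 18 were called, all higher, where 9.84% of all genes were called higher and 8.47% lower, and DESeq2 called 22, where it called 9.16% of all genes higher. The unadjusted p was below 0.05 for 27 of the 32, where 58.5% of all genes reached that level. The median log2 fold change was 1.23, against −0.01 over all genes. In 12 genes every Winnie-Prolapse library lay above every control, where 6.5% of all genes did so, and none of the 32 was lower without overlap, where 9.45% of all genes were. Those 12 were Zbp1, Irf1, Irf9, Stat2, Ifit2, Ifit3b, Bst2, Ifitm3, Usp18, Cmpk2, Ifi44 and Xaf1. With the milk protein genes left out of the totals they were joined by Dhx58, Oas3, Oasl2 and Rtp4, which made 16, where 7.32% of all genes were then higher without overlap. Both comparisons share the C57BL/6 libraries, so their values are set side by side below and are not independent of each other.

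In Winnie-Prolapse against Winnie, 0 of the 32 genes passed either limit in edgeR, where 4.27% of the 17041 genes tested rose and 2.72% fell by the wider limit, and 0% passed the stricter one in either direction. The unadjusted p was below 0.05 for 4 of the 32, where 27.8% of all genes reached that level. These were Bst2, Ifitm3, Usp18 and Ifit2. The median log2 fold change was 0.16, against 0.01 over all genes. DESeq2 called 0 by the stricter limit, where it called 1.65% of all genes higher. By the wider limit it called 1 gene, Bst2, where it called 5.59% of all genes higher. In limma-voom 0 of the 32 passed either limit. By the wider limit it called 2.93% of all genes higher and 2.15% lower, and by the stricter limit 0%. Leaving out Winnie replicate 1 brought 1 call by the wider limit, Ifit2, where 3.87% of all genes were then called higher, and leaving out Winnie replicate 2 brought 2, Bst2 and Ifitm3, where 6.45% were. None of the 32 genes separated these groups, where 0.411% of all genes were higher and 0.552% lower without overlap.

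**Figure D2:**
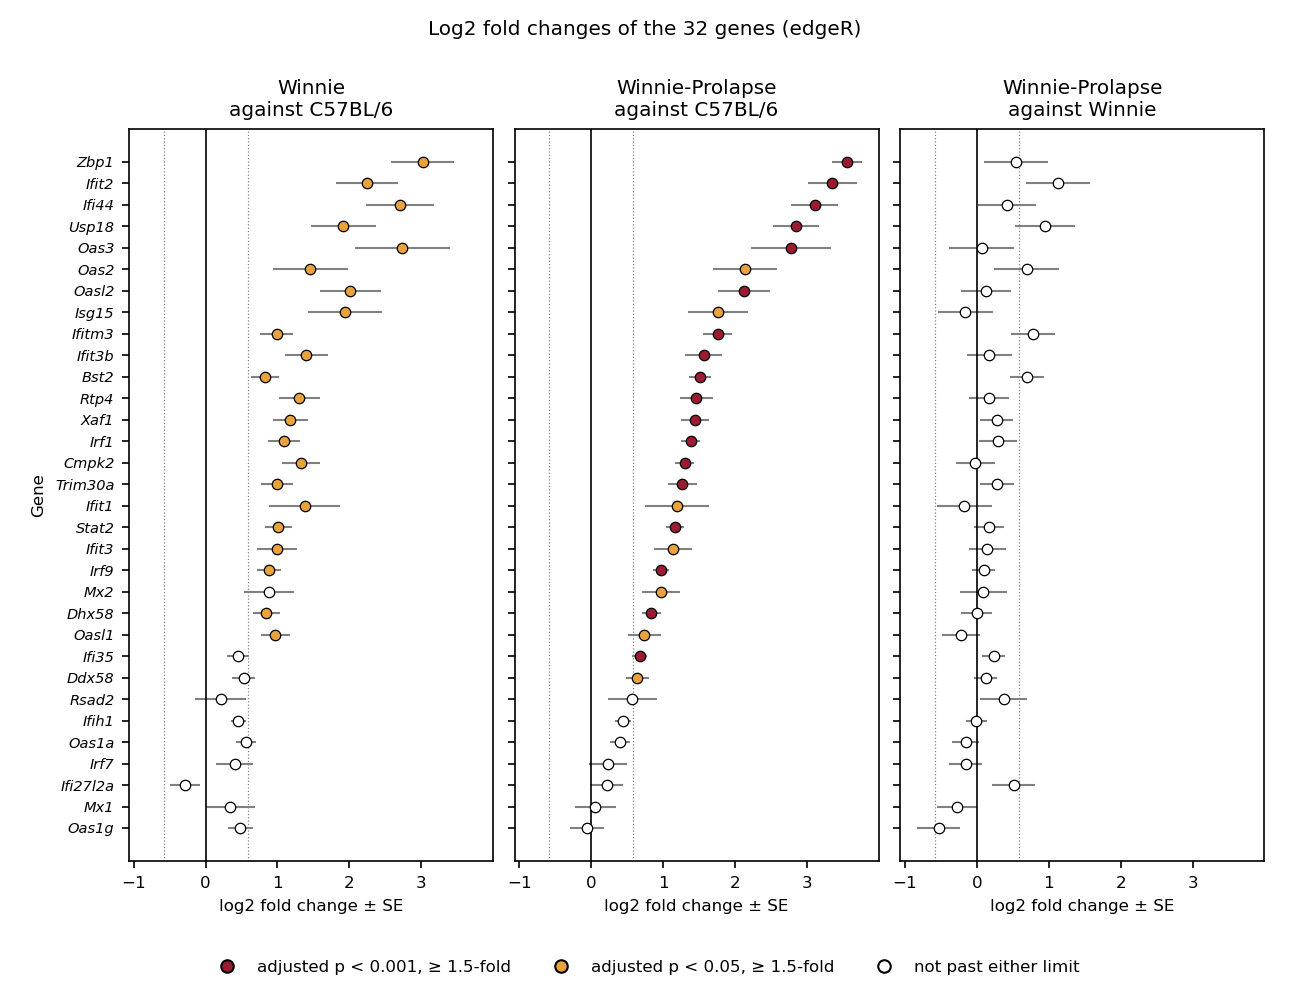
Points are edgeR log2 fold changes and bars are ± 1 SE, for the 32 genes in the 3 comparisons, ordered by Winnie-Prolapse against C57BL/6. Filled points passed a limit on the adjusted p at 1.5-fold or more (dotted lines). Red points appear only in Winnie-Prolapse against C57BL/6, and every point of Winnie-Prolapse against Winnie is open.

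Among the sensors, Zbp1 and Dhx58 rose in both groups, Ddx58 in Winnie-Prolapse and Ifih1 in neither. Zbp1 binds Z-form nucleic acid and can trigger cell death. Zbp1 stood at 12.9, 16.3 and 29.1 CPM (lowest, median and highest) in C57BL/6, at 16.8, 122 and 259 in Winnie, and at 136, 187 and 291 in Winnie-Prolapse. All Winnie-Prolapse libraries and 6 of 7 Winnie libraries lay above every control, and the remaining Winnie library, replicate 5, lay among the controls. The log2 fold change against C57BL/6 was 3.02 ± 0.44 in Winnie (adjusted p = 0.00124) and 3.56 ± 0.21 in Winnie-Prolapse (adjusted p = 1.04e-08). Dhx58, which encodes the regulatory helicase LGP2, rose by 0.84 ± 0.19 and 0.84 ± 0.13 on the log2 scale in the same order. Ddx58, which encodes RIG-I, had values of 0.53 ± 0.16 and 0.64 ± 0.16, and only the second was called. The first was called in 5 of 25 alternative settings, and the call of the second was lost in 4 of 25. Ifih1, which encodes MDA5, had 0.46 ± 0.10 and 0.45 ± 0.11, under 1.5-fold in both despite adjusted p values of 0.00667 and 0.00371. For Ifih1, 6 of 7 Winnie libraries lay above every control and Winnie replicate 5, at 74.4 CPM, below every control.

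Of the transcription factors, Irf1, Irf9 and Stat2 rose in both groups and Irf7 in neither. Irf1, a factor induced mainly through GAS elements, stood at 116, 127 and 148 CPM in C57BL/6, at 104, 266 and 435 in Winnie, and at 251, 273 and 445 in Winnie-Prolapse. Controls were tightly grouped, 6 of 7 Winnie libraries were above all of them and replicate 5 was below all of them. The log2 fold change was 1.09 ± 0.22 in Winnie (adjusted p = 0.00497) and 1.38 ± 0.13 in Winnie-Prolapse (adjusted p = 1.44e-06). Irf9 and Stat2, which belong to the ISRE-binding complex, rose by 0.88 ± 0.16 and 1.01 ± 0.19 in Winnie and by 0.97 ± 0.11 and 1.17 ± 0.13 in Winnie-Prolapse. Irf9 overlaps Rnf31 on the same strand, so its reads could be split with that gene. Irf7, the factor that amplifies type I interferon production, stood at 59.3, 75.3 and 203 CPM in C57BL/6, at 67.0, 109 and 162 in Winnie, and at 54.0, 105 and 139 in Winnie-Prolapse. The groups overlapped, with 1 Winnie-Prolapse library below every control, and the highest Irf7 value of all 22 libraries was that of C57BL/6 replicate 7. Its log2 fold changes were 0.40 ± 0.25 (adjusted p = 0.25) and 0.23 ± 0.26 (adjusted p = 0.463). Without that control they were 0.67 (adjusted p = 0.0143), past the limit, and 0.53 (adjusted p = 0.023), under 1.5-fold. Over the 25 alternatives of each comparison Irf7 was called in 3 and in 1.

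All 4 IFIT genes, which encode antiviral proteins, rose in both groups. They lie side by side on chromosome 19 between 34550694 and 34650009 (GRCm38), on the plus strand. Ifit2 stood at 4.20, 6.23 and 16.4 CPM in C57BL/6, at 7.25, 26.3 and 79.7 in Winnie, and at 42.9, 52.8 and 139 in Winnie-Prolapse. The lowest Winnie-Prolapse library was above the highest control, while 5 of 7 Winnie libraries were. Its log2 fold changes were 2.24 ± 0.43 in Winnie and 3.35 ± 0.34 in Winnie-Prolapse (adjusted p = 0.00413 and 1.95e-06). Between the diseased groups Ifit2 differed by 1.13 ± 0.45 (adjusted p = 0.119).

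Ifit1 showed more overlap. It stood at 4.34, 8.07 and 38.8 CPM in C57BL/6, at 8.10, 28.7 and 63.9 in Winnie, and at 12.0, 22.5 and 43.1 in Winnie-Prolapse, and only 1 library of each diseased group exceeded C57BL/6 replicate 7. Its log2 fold changes were 1.38 ± 0.49 and 1.19 ± 0.44, with adjusted p values of 0.0497 and 0.0335, and the calls were lost in 17 and in 7 of 25 alternative settings. Without replicate 7 the values were 1.95 and 1.79. Ifit3 and Ifit3b rose by 0.999 ± 0.28 and 1.40 ± 0.30 in Winnie and by 1.14 ± 0.27 and 1.57 ± 0.26 in Winnie-Prolapse. These neighbors are close copies, so the division of reads between them is uncertain.

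In the OAS family 4 of 6 genes rose in both groups, from 6.67-fold for Oas3 to 1.96-fold for Oasl1 in Winnie. Its active members make the messenger 2′-5′ oligoadenylate when they meet double-stranded RNA. Oas3 stood at 1.11, 3.28 and 24.7 CPM in C57BL/6, at 3.87, 35.2 and 88.1 in Winnie, and at 22.3, 47.3 and 55.5 in Winnie-Prolapse. The highest control was again replicate 7, and the next control was at 7.87 CPM, below 6 of 7 Winnie and all Winnie-Prolapse libraries. Its log2 fold changes were 2.74 ± 0.67 and 2.78 ± 0.56 (adjusted p = 0.0105 and 0.000727), and without C57BL/6 replicate 7 they were 3.496 and 3.56.

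Oasl2 followed the same order, at 13, 28 and 93.6 CPM in C57BL/6, at 35.2, 135 and 272 in Winnie, and at 86.7, 171 and 220 in Winnie-Prolapse. In each diseased group 6 of 7 libraries exceeded every control, and the log2 fold changes were 2.01 ± 0.43 and 2.12 ± 0.36. Oas2, at 0.991 to 7.75 CPM in controls, rose by 1.46 ± 0.52 and 2.14 ± 0.45, the first with an adjusted p of 0.0489, a call that was lost in 15 of 25 settings. Oasl1, known as a brake on Irf7 translation, rose by 0.97 ± 0.20 and 0.74 ± 0.23. Oas1a had 0.56 ± 0.14 and 0.40 ± 0.14, under 1.5-fold, and Oas1g had 0.48 ± 0.17 and −0.06 ± 0.24. In Winnie Oas1a was called in 4 and Oas1g in 1 of 25 alternative settings. Oas1a and Oas1g are close copies and neighbors on chromosome 5, and their separate counts are uncertain.

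The classic Mx genes encode large GTPases that block viral replication, and Mx1 was among the least changed of the set. Mx1 stood at 2.55, 5.21 and 11.8 CPM in C57BL/6, at 2.43, 6.95 and 12.4 in Winnie, and at 4.15, 5.87 and 8.76 in Winnie-Prolapse. The ranges covered each other, and the log2 fold changes were 0.35 ± 0.34 (adjusted p = 0.469) and 0.06 ± 0.29 (adjusted p = 0.881). Mx2 was at 0.381 to 1.34 CPM in controls, and its log2 fold change was 0.88 ± 0.35 in Winnie (adjusted p = 0.0728, called in 6 of 25 alternatives), while it rose by 0.96 ± 0.26 in Winnie-Prolapse (adjusted p = 0.00646). In the C57BL/6 strain Mx1 and Mx2 are known to carry inactivating changes, and the annotation lists Mx2 as a polymorphic pseudogene.

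The membrane factors Ifitm3 and Bst2 rose in both groups and had the lowest adjusted p values of the 32 genes between Winnie-Prolapse and Winnie. Ifitm3 blocks the fusion of viruses with endosomes and Bst2, or tetherin, holds budding virus at the cell surface. Ifitm3 stood at 43.0, 50.8 and 56.4 CPM in C57BL/6, at 49.6, 71.2 and 181 in Winnie, and at 78.6, 133 and 315 in Winnie-Prolapse. Bst2 stood at 8.06, 9.69 and 11.7 CPM, at 7.97, 15.8 and 24.5, and at 18.2, 25.4 and 33.8 in the same order. Controls of both genes lay in a narrow range, replicate 7 included, and 6 of 7 Winnie and all Winnie-Prolapse libraries were above it.

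For Ifitm3 the log2 fold changes were 0.99 ± 0.22 in Winnie and 1.76 ± 0.20 in Winnie-Prolapse (adjusted p = 0.00779 and 5.44e-06). For Bst2 they were 0.82 ± 0.19 and 1.51 ± 0.15 (adjusted p = 0.0084 and 1.63e-06). Between Winnie-Prolapse and Winnie the differences were 0.78 ± 0.30 for Ifitm3 (adjusted p = 0.114) and 0.70 ± 0.24 for Bst2 (adjusted p = 0.0751), short of the limit, although both passed when all 3 groups were fitted together (adjusted p = 0.0449 and 0.0251). Per kilobase of exon, Ifitm3 had the highest level of the 32 genes in every group, with medians of 74.9, 105 and 196 CPM per kb, and Irf1 came next, with 32, 67 and 68.6. Mx2 was the lowest in every group, at a median of 0.146 CPM per kb in C57BL/6.

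Isg15, the ubiquitin-like protein attached to host and viral proteins, and Usp18, the protease that removes it and also restrains the type I receptor, both rose. Isg15 stood at 1.65, 3.89 and 17.9 CPM in C57BL/6, at 3.38, 21.3 and 36.6 in Winnie, and at 11.7, 16.3 and 23.0 in Winnie-Prolapse. Apart from replicate 7 the highest control was at 5.73 CPM, and 4 of 7 Winnie and 3 of 7 Winnie-Prolapse libraries exceeded replicate 7. The log2 fold changes of Isg15 were 1.95 ± 0.51 and 1.77 ± 0.42 (adjusted p = 0.0147 and 0.00235), and 2.52 and 2.37 without replicate 7. Usp18 stood at 0.698, 1.12 and 3.33 CPM in C57BL/6, at 0.853, 5.39 and 9.87 in Winnie, and at 6.32, 8.15 and 16.5 in Winnie-Prolapse. All Winnie-Prolapse libraries and 4 of 7 Winnie libraries lay above every control, with log2 fold changes of 2.85 ± 0.32 and 1.91 ± 0.45 respectively.

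**Figure D3:**
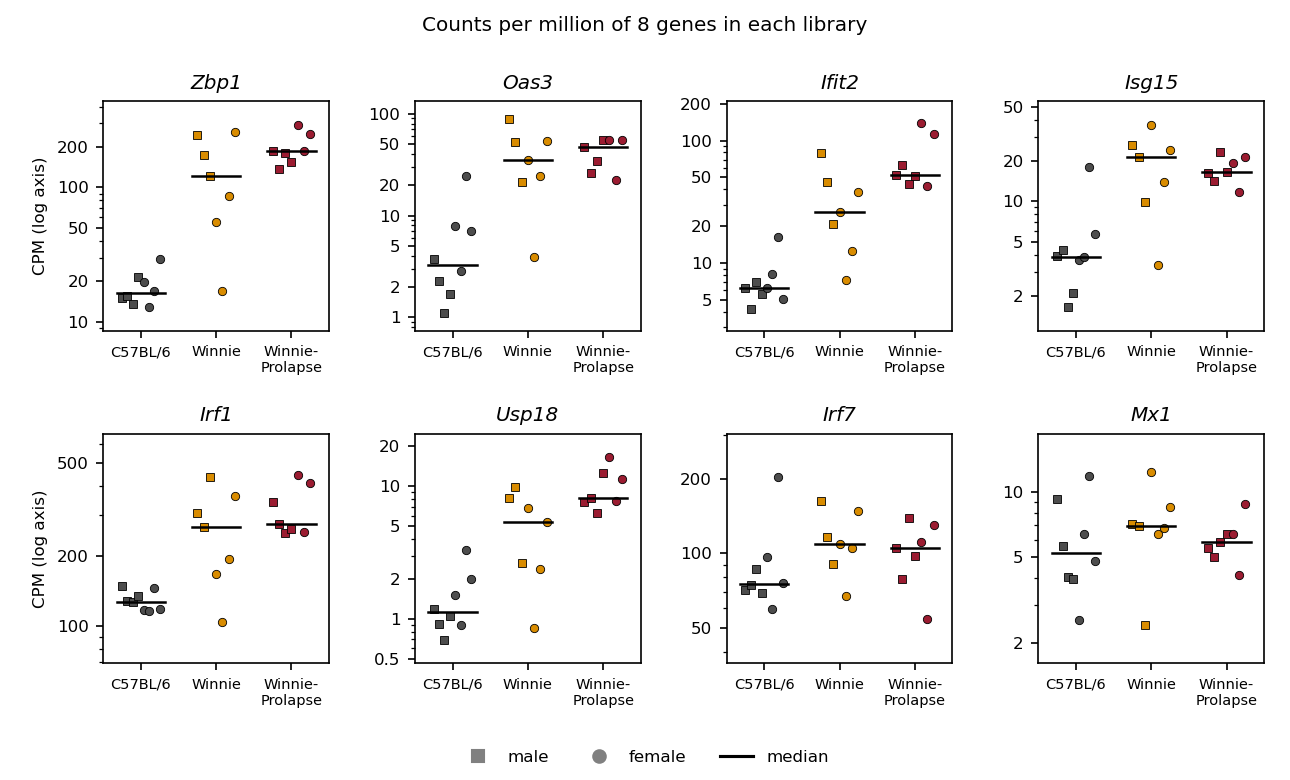
CPM on a log axis in each library for Zbp1, Oas3, Ifit2, Isg15, Irf1, Usp18, Irf7 and Mx1, with squares for males, circles for females and lines at group medians. Zbp1, Irf1, Ifit2 and Usp18 in Winnie-Prolapse clear every control, Winnie spreads from the control range upward, and Irf7 and Mx1 overlap in all groups.

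Of the nucleotide enzymes Cmpk2 and Rsad2, whose genes are neighbors on chromosome 12, Cmpk2 rose in both groups and Rsad2 was not called, and the difference between them was not tested. Cmpk2, a mitochondrial kinase of pyrimidine nucleotides, stood at 6.09, 8.15 and 11.8 CPM in C57BL/6, at 6.23, 24.4 and 27.2 in Winnie, and at 14.0, 18.8 and 24.1 in Winnie-Prolapse. Every Winnie-Prolapse library exceeded every control, as did 5 of 7 Winnie libraries, and the log2 fold changes were 1.33 ± 0.26 and 1.30 ± 0.13. Rsad2, or viperin, which makes a chain-ending nucleotide, stood at 4.51, 9.17 and 18.5 CPM, at 4.43, 10.1 and 21.7, and at 7.08, 13.3 and 22. Its groups overlapped throughout, with log2 fold changes of 0.21 ± 0.35 (adjusted p = 0.684) and 0.57 ± 0.34 (adjusted p = 0.167).

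Among the other induced genes, Ifi44, an inhibitor of virus growth, stood at 0.476, 1.02 and 2.64 CPM in C57BL/6, at 1.38, 7.63 and 15.2 in Winnie, and at 7.41, 9.49 and 14.1 in Winnie-Prolapse. In Winnie 6 of 7 libraries and in Winnie-Prolapse all 7 were above every control, and the log2 fold changes were 2.70 ± 0.47 (adjusted p = 0.00249) and 3.11 ± 0.33 (adjusted p = 2.97e-06). Xaf1, which promotes cell death, rose by 1.18 ± 0.24 and 1.45 ± 0.19, and the chaperone gene Rtp4 rose by 1.31 ± 0.28 and 1.46 ± 0.23. Rtp4 overlaps Gm45338 on the same strand. Trim30a, a regulator of NF-κB signaling, rose by 0.99 ± 0.22 and 1.27 ± 0.20. Ifi35 had 0.45 ± 0.15 in Winnie, under 1.5-fold, and rose by 0.67 ± 0.10 in Winnie-Prolapse. Ifi27l2a was the only gene with a negative value in Winnie, −0.29 ± 0.20 (adjusted p = 0.308), and had 0.21 ± 0.23 in Winnie-Prolapse (adjusted p = 0.453).

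Libraries differed in the level of the whole set. Over the 32 genes, the median of log2(CPM + 0.5) minus the control mean lay between −0.27 and 0.14 in 7 controls and was 0.59 in C57BL/6 replicate 7. In that library Zbp1, Irf1, Bst2 and Ifitm3 were within the range of the other controls, while Isg15 was at 17.9 CPM against 5.73 in the next control and Irf7 at 203 against 96.5. Winnie libraries ranged from −0.08 in replicate 5 through 0.42 in replicate 6 to 1.35 in replicate 1. Winnie-Prolapse libraries ranged from 0.73 in replicate 6 to 1.68 in replicate 5. With the milk protein genes left out of the totals replicate 6 was at 0.998, above replicates 1, 2 and 3 (0.95, 0.94 and 0.96). Winnie replicate 5 thus lay within the range of the 7 other controls. Winnie replicate 6 lay above these and within the control range only through C57BL/6 replicate 7. No Winnie-Prolapse library lay within the control range.

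**Figure D4:**
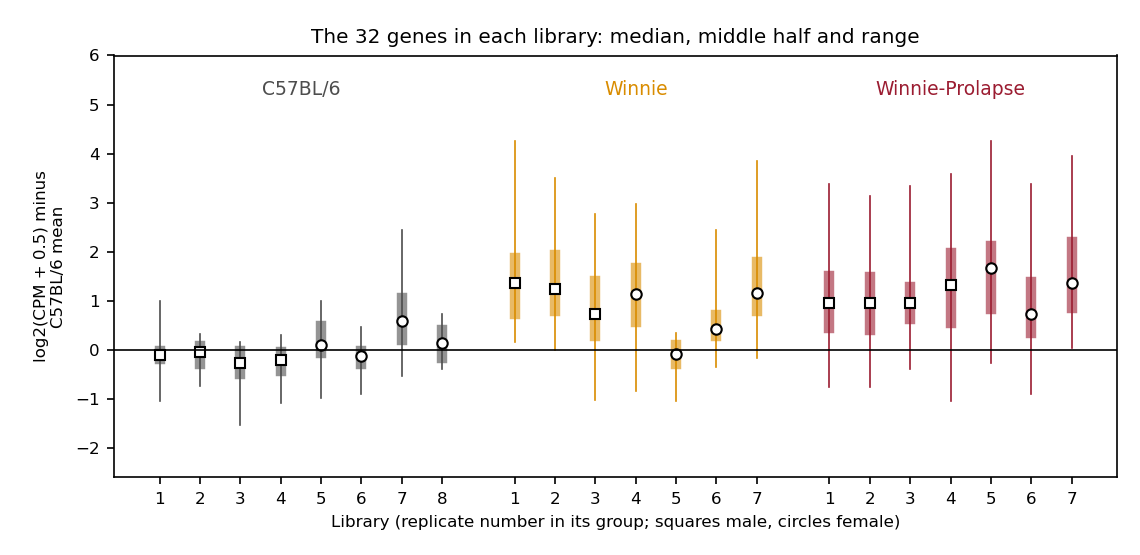
For each library, the marker is the median over the 32 genes of log2(CPM + 0.5) minus the C57BL/6 mean, the thick bar the middle 50% of genes and the thin line their range. Winnie replicate 5 sits at −0.08, among the controls, and C57BL/6 replicate 7 at 0.59, above the other controls.

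The call counts differed between the sexes when each was fitted alone, although none of the 32 genes had a significant difference between them. In males, 25 of the 32 genes rose in Winnie against C57BL/6, where 11.8% of all genes rose. In females edgeR called 0 of the 32, where 0.00579% of all genes were called higher, although the unadjusted p was below 0.05 for 13 of the 32 (19.2% of all genes) and 31 of the 32 values were positive. The median log2 fold change was 1.32 in males and 0.68 in females. Both the control and the Winnie library that stood apart were female, and their part in the counts of each sex fitted alone was not tested.

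In the interaction of sex and group, edgeR called 0 of the 32 genes, where 0.247% of all genes were called. That share of all genes was 1.37% without C57BL/6 replicate 7 and 0.215% without Winnie replicate 5. It ran from 0% to 1.7% with single libraries left out. DESeq2 called 0 of the 32, where it called 2.94% of all genes. The edgeR unadjusted p was below 0.05 for 9 of the 32, where 18.2% of all genes reached that level (11.1% to 20.6% with single libraries left out). All 9 had the larger change in males, from 0.73 log2 units for Irf9 to 3.04 ± 1.08 for Oas3. In Winnie-Prolapse against C57BL/6, 25 genes rose in males (13% of all genes) and 22 in females (13.7% of all genes), with medians of 1.25 and 1.22.

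Between Winnie-Prolapse and Winnie the median log2 fold change was −0.14 in males and 0.49 in females. In males edgeR called 0 of the 32, where 0% of all genes were called higher, and 1 of the 32 had an unadjusted p below 0.05, where 5.23% of all genes did. Females had 4 genes that rose, Ifit2, Bst2, Ifitm3 and Ifi27l2a, where 8.09% of all genes rose, and 1 that fell, Oas1g, where 6.25% fell. The interaction called 0 of the 32 genes for this comparison and for Winnie-Prolapse against C57BL/6, in edgeR, where 0% of all genes were called in either, and in DESeq2, where 0.648% and 0.00671% were. Unadjusted p values below 0.05 were found for 6 of the 32 genes (12.7% of all genes) and 4 of the 32 (4.4% of all genes) respectively.

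The ligands that could induce these genes were at or near 0 at this depth, except for Ifng. The 19 type I and type III interferon genes in the table held 15 counts in all over the 22 libraries, 6 of them had any count (Ifnl3, Ifnab, Ifnl2, Ifnz, Ifnb1 and Ifna7), and the highest value was 0.131 CPM for Ifnl3. At this depth no difference in them was detectable. Ifng had 2 counts in the 8 controls together, 143 in Winnie and 880 in Winnie-Prolapse. Its level relative to the controls was 74.3-fold in Winnie (95% interval 20.2 to 620) and 474-fold in Winnie-Prolapse (131 to 3919), intervals that cover counting error only. Of the 143 counts 63 were in Winnie replicate 2, without which the ratio was 48.5. The 2 control counts were 1 each in C57BL/6 replicates 1 and 8, and without either of them the ratios were 129 in Winnie and 825 or 822 in Winnie-Prolapse. In CPM it ran from 0.034 to 2.02 in Winnie and from 1.39 to 10.2 in Winnie-Prolapse, which differed by 2.75 ± 0.69 on the log2 scale (adjusted p = 0.0285).

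Of the interferon receptor genes 1 was called, in Winnie-Prolapse, and the signaling genes below them changed in part. Of 6 interferon receptor genes edgeR called 0 in Winnie, where 7.42% of all genes rose and 8.53% fell. DESeq2 and limma-voom also called 0, where 5.47% and 7.09% of all genes rose and 6.32% and 8.99% fell. The edgeR unadjusted p was below 0.05 for 1 of the 6, where 39.9% of all genes reached that level. In Winnie-Prolapse Ifnar2 rose by 1.25 ± 0.16, the only 1 of the 6 called, where 16.7% of all genes rose and 17.7% fell. The unadjusted p was below 0.05 for 4 of the 6, where 58.5% of all genes reached that level. Ifngr1 and Ifnlr1 had an adjusted p below 0.05 with a change under 1.5-fold. Ifnar1 had 0.08 and 0.23, Ifngr1 −0.04 and −0.44, Ifngr2 −0.07 and −0.20, and Il10rb −0.05 and −0.06. The feedback inhibitors Socs1 (2.63 ± 0.43 and 4.40 ± 0.27) and Socs3 (1.96 ± 0.34 and 3.66 ± 0.29) rose in both groups. The kinases Jak1, Jak2 and Tyk2 had −0.07, 0.27 and 0.22 in Winnie and 0.06, 0.56 and 0.27 in Winnie-Prolapse. Socs1 and Socs3 also rose from Winnie to Winnie-Prolapse, by 1.79 ± 0.48 and 1.71 ± 0.39 (adjusted p = 0.0363 and 0.0229), as Ifnar2 did, by 0.83 ± 0.20 (adjusted p = 0.0259). Of 13 genes that induce interferon upstream, 3 rose in Winnie (7.42% of all genes) and 6 in Winnie-Prolapse (16.7%). None of the 13 fell, where 8.53% and 17.7% of all genes did. In that list Irf8 rose by 0.94 ± 0.17 and 1.15 ± 0.13, while Mavs, Irf3 and Ikbke had 0.11, −0.22 and 0.43 in Winnie and −0.06, −0.20 and 0.40 in Winnie-Prolapse.

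Of 28 further antiviral genes tested, 10 rose in Winnie (7.42% of all genes) and 16 in Winnie-Prolapse (16.7%), with medians of 0.55 and 0.82. Samhd1, which depletes nucleotides, rose by 0.89 ± 0.21 and 0.84 ± 0.23, and Lgals3bp rose by 0.97 ± 0.22 and 1.34 ± 0.15. Trim25, a partner of RIG-I, had 0.32 ± 0.13 and 0.28 ± 0.13.

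The interferon-inducible GTPases, known for strong induction by Ifng, moved further than the 32 antiviral genes in median. All 8 immunity-related GTPases tested rose in Winnie and all 9 in Winnie-Prolapse, with medians of 3.84 and 5.11. All 8 guanylate-binding proteins tested rose in both, with medians of 2.78 and 3.49. Of all genes 7.42% rose in Winnie and 16.7% in Winnie-Prolapse. Iigp1 stood at 2.77, 4.13 and 7.05 CPM in C57BL/6, at 4.56, 222 and 273 in Winnie, and at 147, 271 and 526 in Winnie-Prolapse. Its log2 fold change was 5.13 ± 0.66 in Winnie (adjusted p = 0.000937) and 6.13 ± 0.32 in Winnie-Prolapse (adjusted p = 4.35e-09), and Winnie replicate 5 lay within the control range. Igtp, Irgm2 and Irgm1 had 3.61, 2.63 and 2.34 in Winnie and 4.41, 3.02 and 3.05 in Winnie-Prolapse. Gbp2, Gbp4, Gbp3 and Gbp7 had 3.90, 3.02, 2.76 and 2.05 in Winnie and 4.47, 4.50, 3.48 and 2.72 in Winnie-Prolapse. Between Winnie-Prolapse and Winnie edgeR called 0 of 9 in either list, where 4.27% of all genes rose and 2.72% fell. Its unadjusted p was below 0.05 for 1 immunity-related GTPase and 4 guanylate-binding proteins, where 27.8% of all genes reached that level. DESeq2 called 2 guanylate-binding proteins and 0 immunity-related GTPases by the wider limit, where it called 5.59% of all genes higher and 2.96% lower. No test of the difference between these lists and the 32 antiviral genes was made.

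**Figure D5:**
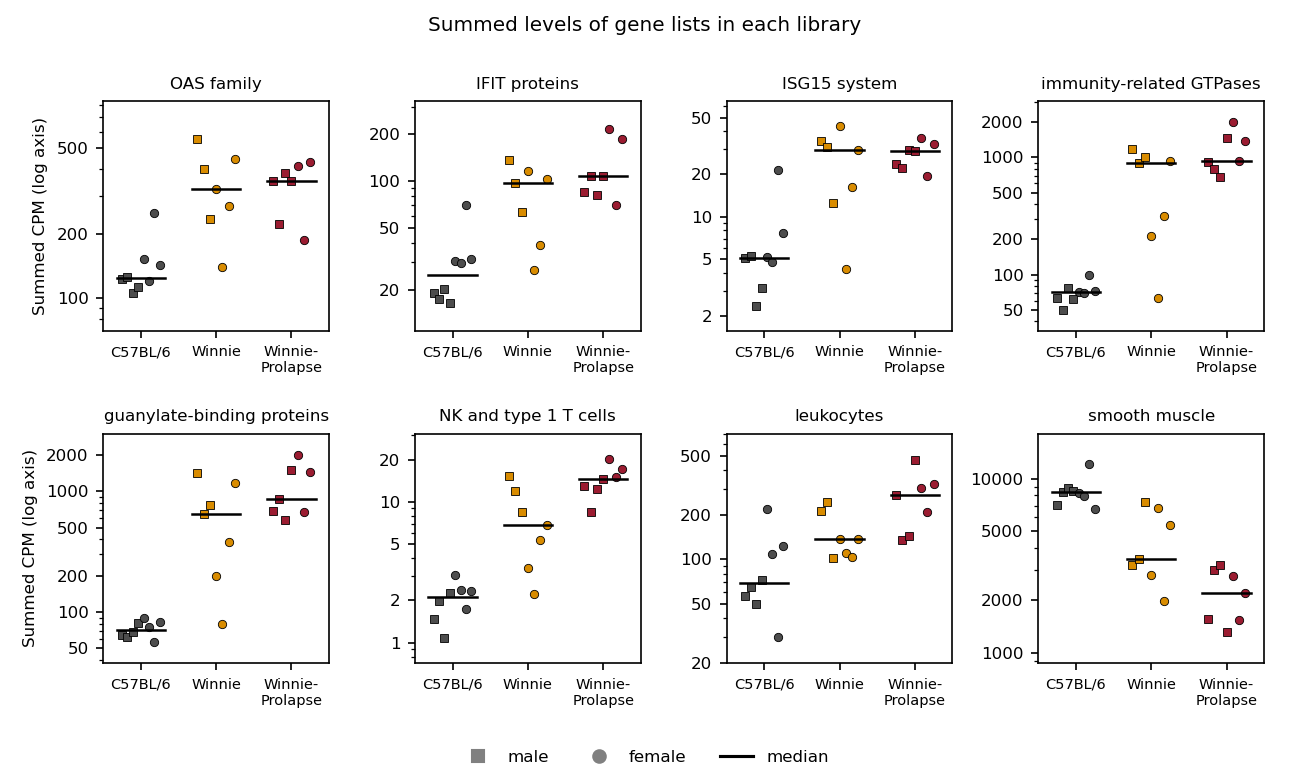
Summed CPM of each gene list on a log axis, by library, with squares for males, circles for females and lines at group medians. The NK and type 1 T cell list includes Ifng. Immunity-related GTPases rise from a median of 70.7 in controls to 904 in Winnie, the OAS family from 124 to 322, NK and type 1 T cell markers from 2.11 to 6.86, and smooth muscle markers go down from 8315 to 3446.

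Cell type markers moved with these groups. Of all genes 7.42% rose and 8.53% fell in Winnie, and 16.7% rose and 17.7% fell in Winnie-Prolapse. Of 8 leukocyte markers, 5 rose in Winnie and 7 in Winnie-Prolapse, and their summed level was 29.8 to 220 CPM in C57BL/6 (50.2 to 220 without replicate 7), 102 to 243 in Winnie and 136 to 471 in Winnie-Prolapse. All 5 markers of NK and type 1 T cells tested in Winnie and all 6 in Winnie-Prolapse rose, with sums of 1.08 to 3.05, 2.23 to 15.2 and 8.47 to 20.3 CPM. That list and its sums include Ifng, already given above as a ligand. Ifng was tested in Winnie-Prolapse but not in Winnie, and reached 10.2 CPM, so the list is not separate from the ligand result. Of 5 macrophage markers 1 rose in Winnie and 5 in Winnie-Prolapse, with sums of 65.3 to 192 (129 to 192 without C57BL/6 replicate 7), 118 to 250 and 169 to 548 CPM. All 6 smooth muscle markers fell in both groups, and their sum went from 6686 to 12048 CPM in C57BL/6 (6686 to 8820 without replicate 7) to 1986 to 7309 in Winnie and 1309 to 3178 in Winnie-Prolapse. Of the neutrophil markers, 2 of 3 tested rose in Winnie and 3 of 4 in Winnie-Prolapse, and S100a8 was at 0.0342 to 0.617 CPM in C57BL/6, 0.0984 to 36.2 in Winnie and 21.4 to 356 in Winnie-Prolapse.

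Other lists moved as well, and the same shares of all genes apply to their counts. Of the squamous epithelium markers, 1 of 2 tested rose in Winnie and all 4 in Winnie-Prolapse, with sums of 1.88 to 2.83, 1.62 to 46.3 and 2.42 to 2708 CPM in the order C57BL/6, Winnie and Winnie-Prolapse. All 4 erythroid markers fell in Winnie and 2 of 4 rose in Winnie-Prolapse, with sums of 15.5 (in C57BL/6 replicate 7) to 474, 5.89 to 56.0 and 104 to 1455 CPM. All 4 milk protein genes tested rose in Winnie-Prolapse and none in Winnie, and apart from Winnie-Prolapse replicates 5 and 6 no library of any group held more than 5.49 CPM of them. Of 4 endothelial markers none rose in Winnie and 3 did in Winnie-Prolapse. Of 8 colonocyte markers, Krt20 rose in both groups, and the transport genes Car1 and Slc26a3 fell in Winnie-Prolapse, by 2.98 ± 0.40 and 2.55 ± 0.51 on the log2 scale.

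Siglech, the defining marker of plasmacytoid dendritic cells, a major source of type I interferon, was at 0.374 to 2.98 CPM in all libraries and was not called in either comparison with C57BL/6. Of the other markers in that list, Ccr9 rose in Winnie, and in Winnie-Prolapse Ccr9 and Cox6a2 rose and Klk1 and Pacsin1 fell. The sum of the list was 625 to 1365 CPM in C57BL/6 (781 to 1365 without replicate 7), 316 to 1623 in Winnie and 164 to 542 in Winnie-Prolapse, and was made up largely of Klk1 (495 to 1191, 171 to 1484 and 64.5 to 402 CPM) and Tcf4 (119.7 to 168, 118 to 149 and 95.9 to 181 CPM). The sum thus follows Klk1 and Tcf4 and was not taken as a measure of plasmacytoid dendritic cells. The part of these shifts in the antiviral genes was not tested, and in bulk tissue more cells of a type and more RNA per cell cannot be told apart.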

How the data were processed

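Poly(A) RNA of the distal colon of 22 mice was sequenced as stranded paired-end libraries. The authors ran the RNAsik pipeline on GRCm38 and counted reads per gene, and the deposited table holds raw counts. STAR, featureCounts and limma are named in the submitters' processing notes. The annotation release, strand setting and treatment of shared reads are not given in the sources used here. Groups and sexes were read from the labels, every library is 1 mouse, the labels list more Winnie libraries than the study's text gives for the colon, and p-values measure the spread between mice.

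The 32 genes and all gene lists were chosen with earlier results of these data known. Genes were matched by symbol to a single Ensembl identifier. Counts were tested over all genes passing filterByExpr with edgeR 4.0.16 (TMM factors, quasi-likelihood F test, Benjamini-Hochberg adjustment) in R 4.3.3, fitting the compared groups alone. The SE of a log2 fold change is its size divided by the square root of F. Limits were an adjusted p of 0.001 or 0.05 with 1.5-fold, the stricter after the study's methods. CPM are counts per 1000000 of the library total. No 2 libraries of a group agreed within sampling noise. A check of the test on simulated data was made, and its result is not reported here.

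Named are all 32 genes, in each list up to the 4 genes highest in mean CPM, every signaling and ligand gene with a count, and list genes past the stricter limit in Winnie. Some genes that this rule names are not reported here. Ifnar2 was named after its values were seen. Promoters shown are the first, by level per kilobase, of the roles that held ISRE letters. Gene positions came from GENCODE M21. Alternatives were DESeq2 1.42.0, limma-voom 3.58.1, no TMM, other count filters, sex as a covariate, each sex alone, all groups together and each library left out. DESeq2 and the run with no count filter took every gene with a count. The DESeq2 shares are over 29288 genes in Winnie against C57BL/6, 29816 in Winnie-Prolapse against C57BL/6 and 29471 in Winnie-Prolapse against Winnie. Libraries 24817527 to 36344372 counts deep limit low genes.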

Additional observations from a re-analysis of the deposited data

Results flagged for a closer look

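Of 96 checks, each for a gene within a group, 10 found a library farther from its nearest neighbor than expected for the range of its group, and chance gives about 1 in 20. Of these 10, 8 were in C57BL/6 replicate 7, the highest control in each. Its values were 31.6 CPM for Ddx58, 203 for Irf7, 38.8 for Ifit1, 16.4 for Ifit2, 24.7 for Oas3, 53.9 for Oasl1, 17.9 for Isg15 and 31.8 for Ifi35. The next controls had 22, 96.5, 15.2, 8.10, 7.87, 35.8, 5.73 and 23.8 CPM. The others were Ifih1 in Winnie replicate 5, at 74.4 CPM against 111 in the next library, and Rsad2 in Winnie replicate 4, at 21.7 CPM against 11.5 in the next.

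In Winnie-Prolapse against Winnie, 4 genes moved one way in every male and the other way in every female library, each set against the mean of the same sex in Winnie, where 2.43% of the 17041 genes tested did so in either direction. The male minus female differences, on the scale of log2(CPM + 0.5), were −0.69 for Irf9, −0.65 for Mx2, −0.94 for Cmpk2 and −1.66 for Ifi44, with males lower and females higher. Of the 17041 genes tested, 127 moved in that direction. Without Winnie replicate 5, a female near the control level, 3 of the 4 still did so. Of all genes tested, 2.32% then did so in either direction, 136 of them with males lower. The differences of the 4 genes were then −0.49, −0.51, −0.61 and −1.23 in the same order. Cmpk2 was the gene that no longer did. The interaction test of edgeR gave adjusted p values of 0.393, 0.591, 0.473 and 0.384 in the same order, so none was called.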

How the results depend on the processing

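All 22 genes that rose in Winnie and all 25 that rose in Winnie-Prolapse against C57BL/6 kept a positive value in every alternative run. The count of Winnie calls by the stricter limit, 0 of 32, became 18 with DESeq2, 1 with no count filter, 4 with all 3 groups in a single fit, 9 in males alone and 18 without both C57BL/6 replicate 7 and Winnie replicate 5, an alternative added after seeing the data. The shares of all genes called higher in those settings were 2.63%, 0.219%, 0.979%, 0.637% and 3.55%. With single libraries left out the count ranged from 0 to 13 and the share of all genes from 0% to 2.5%, both highest without Winnie replicate 5. The wider limit gave 0 in females alone (0.00579% of all genes), against 22, and 20 to 26 with single libraries left out (5.67% to 9.19%). Winnie-Prolapse calls by the stricter limit, 18, became 12 in males alone (1.43% of all genes) and 4 in females alone (1.28%). They were 17 to 23 with single libraries left out (7.89% to 11.4%). For Winnie-Prolapse against Winnie, the wider limit gave 1 with DESeq2 (5.59% of all genes called higher), 2 with all 3 groups together (6.06%), 5 in females alone (8.09% higher and 6.25% lower) and 0 to 2 with single libraries left out (1.58% to 6.45%), against 0. The causes were not tested. Leaving milk protein genes out of the library totals, also added after seeing the data, moved the genes without overlap in Winnie-Prolapse against C57BL/6 from 12 to 16.

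In males alone the sign turned for the Winnie-Prolapse against Winnie median (−0.14) and for Zbp1 (−0.12), Irf1 (−0.23), Mx1 (0.0524), Ifi44 (−0.37), Xaf1 (−0.14), Ifi27l2a (−0.28) and Trim30a (−0.0667), none of them called. In Winnie against C57BL/6 it turned for Mx1 in males (−0.0242) and Ifnar1 in females (−0.0314), also not called. Values smaller than their SE were taken to have no direction, and 2, 11 and 54 of them changed sign over the alternatives of the 3 comparisons. No paired analysis was possible because replicate numbers were given in accession order and link no mice across groups. Mx2, Ifi44 and Usp18 had the lowest levels per kilobase of the 32 genes in C57BL/6. Apart from Ifng, the interferon ligands were at or near 0 at this depth.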
